A study of Mus musculus with 18 samples.

Results

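The change from 24 h to 48 h after release from the naive state was compared between 2 lines of mouse embryonic stem cells (ESCs), as the change in iEZR_CA cells minus the change in WT cells. This difference of differences, called the interaction below, used 12 of the 18 libraries of the study, chosen by their labels: 3 libraries each of WT at T24, WT at T48, iEZR_CA at T24 and iEZR_CA at T48. WT cells were the parental E14 line, without doxycycline. iEZR_CA cells carried a doxycycline-inducible, phosphomimetic form of ezrin (EZR_CA) joined to mCherry through an IRES and delivered by PiggyBac, and received doxycycline from about 16 h before exit. Every library came from cells grown in 2i+LIF and then moved to N2B27 on gelatin for 24 h or 48 h. The transgene and the drug varied together, so that neither can be told apart from the other or from differences between the 2 lines, and whether iEZR_CA is 1 clone is not given in the sources used here. Polyadenylated RNA was sequenced and counted per gene. In these bulk samples, fewer cells of a type and less RNA per cell cannot be told apart.

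The 2i inhibitors block MEK and GSK3, and together with LIF hold ESCs in a naive state like that of the pre-implantation epiblast. After their removal the naive transcription factors are shut down and a formative programme is switched on, with Fgf5, Otx2, Pou3f1 and the de novo DNA methyltransferases among its usual markers, before lineage genes appear. FGF acting through ERK drives this exit. Ezrin tethers the cell membrane to cortical actin, and its phosphomimetic form keeps membrane tension high. A line that lags in the exit can later catch up with its control, or the gap can grow, and the interaction asks which of these happened to each gene in the second day.

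The 12 libraries held 10940752 to 33276622 counts on genes, and the common coefficient of variation between libraries of a group was 2.98%, so that small changes passed the test. Ezr, which the transgene adds to, stood at 7890.0, 7703 and 7539 normalized counts in WT at T24, 10095, 10508 and 9683 in WT at T48, 21299, 20185 and 20894 in iEZR_CA at T24 and 16067, 16393 and 16186 in iEZR_CA at T48. All iEZR_CA libraries lay above all WT libraries at both times. The general pluripotency factor Pou5f1 stood between 10773 and 18895 normalized counts over the 12 libraries, and Sox2 between 2511 and 9882. iEZR_CA libraries lost 0.917% to 1.02% of reads to low alignment quality and WT libraries 0.519% to 0.612%, a difference of the lines at both times whose part in the results was not tested.

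Of 18469 genes tested, 8526 (46.2%) passed the test of the interaction at an adjusted p under 0.05. The interaction was higher, meaning that iEZR_CA gained on WT between T24 and T48, in 4665 (25.3%) and lower in 3861 (20.9%), with a median over all genes of 0.01 on the log2 scale. A large interaction, with an absolute log2 value above 1 and a mean normalized count above 5, was found in 2372 genes (12.8%), 1203 higher (6.51%) and 1169 lower (6.33%). The line difference passed the test in 60.9% of all genes at T24 and in 61.1% at T48, and the pair of differences sorts the genes with a large interaction. In 738 (31.1%) the lines came together, either to a difference that no longer passed the test (closed, 498 genes or 2.7% of those tested) or to a smaller one of the same sign (narrowed, 240 or 1.3%). In 900 (37.9%) the lines moved apart, from no call at T24 (opened, 604 or 3.27%) or from a smaller difference (widened, 296 or 1.6%). In 708 (29.8%) the difference passed the test at both times with opposite signs (crossed, 3.83% of those tested), and 26 could not be sorted. The plot of the line difference at both times shows these classes. Their order depended on the filter: with at least 10 counts in every library 519 genes crossed, 391 diverged and 332 caught up, and with a mean count above 50 these were 500, 411 and 312. The number that crossed also depended on scaling and tool. With spike-in scaling 483 crossed, 922 diverged and 732 caught up, and with DESeq2 these were 587, 862 and 695. Leaving out 1 library gave 619 to 679 crossed genes. A gene counted as closed can still differ by less than the test could find.

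**Figure D1:**
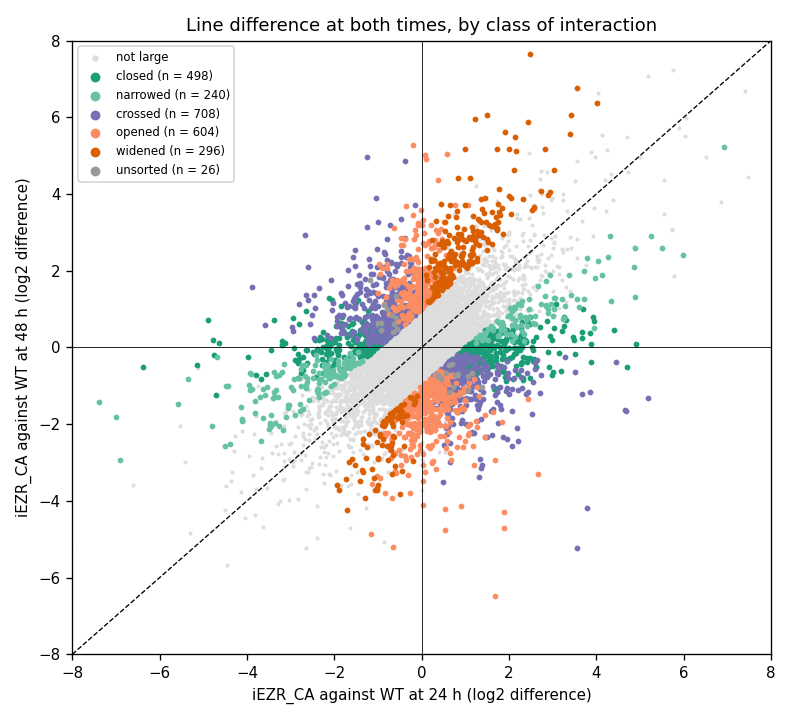
Each point is 1 gene with a mean normalized count above 5, placed by the log2 difference of iEZR_CA against WT at 24 h (x axis) and at 48 h (y axis). The dashed line marks an equal difference at both times, grey points have no large interaction, and colours give the class; 12 genes lie outside the axes at 8. Closed genes (498) lie along the horizontal axis, opened genes (604) along the vertical axis, and crossed genes (708) in the upper left and lower right.

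The line whose level changed differed between the classes. Among the 604 opened genes, 305 changed by call in WT only and 57 in iEZR_CA only, and among the 296 widened genes 200 changed the same way in both lines but more in WT. Divergence thus came mostly with larger changes in WT. Among the 498 closed genes, 149 changed in iEZR_CA only, 147 in WT only and 119 in opposite ways in the 2 lines, and among the 240 narrowed genes 91 changed the same way in both lines but more in iEZR_CA. Of the 708 crossed genes, 292 moved in opposite ways. Over all genes tested, 1361 (7.37%) combined an interaction call with called changes of opposite sign in the 2 lines. From T24 to T48, 65.7% of all genes passed the test in WT and 59.6% in iEZR_CA, and 19.9% and 13.6% did so with an absolute log2 change above 1 and a mean normalized count above 5. These larger changes were 10.4% upwards and 9.48% downwards in WT, and 7.08% and 6.55% in iEZR_CA. All of these contrasts share the same 12 libraries, and none is independent evidence for another.

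**Figure D2:**
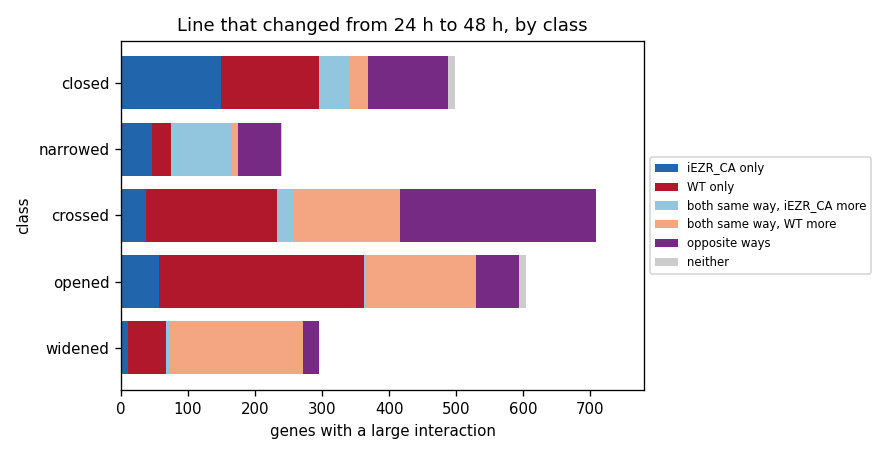
Bars give the number of genes with a large interaction in each class (x axis, genes), divided by which line changed by call from 24 h to 48 h. WT-only changes are the longest segment in opened genes (305 of 604), changes of both lines the same way but larger in WT fill most of the widened bar (200 of 296), and opposite changes are the longest segment in crossed genes (292 of 708).

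The fate of the early gap was followed in the genes that were over 2-fold apart at T24, with an adjusted p under 0.05 and a mean normalized count above 5. Of 1309 genes over 2-fold higher in iEZR_CA at T24 (7.09% of those tested), 43.2% were still over 2-fold higher at T48, 29.9% no longer passed the test and 10.6% had a called difference of the opposite sign. Of 1273 genes over 2-fold lower at T24 (6.89%), these shares were 40.5%, 25.4% and 9.9%. Read backwards from T48, 40.7% of the 1389 genes over 2-fold higher (7.52%) and 35.3% of the 1462 genes over 2-fold lower (7.92%) had been so at T24, while 23.1% and 41% had not passed the test there. Choosing genes at 1 time favours a smaller value at the other, which is why both directions are given.

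Formative genes moved towards WT. Of the 18 genes on the list, 16 had a higher interaction, 1 (Sox3) a lower one and 1 (Tead2) no call, with a median of 1.44 on the log2 scale against 0.01 over all genes. Interaction calls of this and the later lists are to be read against 25.3% higher and 20.9% lower over all genes. All 18 were lower in iEZR_CA at T24 (30.1% of all genes were), and 13 were still lower at T48 (30.1%), while 3 were higher (31%). The median line difference went from -1.35 to -0.46. Within iEZR_CA, 16 of the 18 rose from T24 to T48 (29.6% of all genes rose), whereas in WT 8 rose (32.8%) and 9 fell (32.9%). Of those with a call, 11 narrowed, 2 closed, 3 crossed and 1 widened, whatever the size of the interaction. Over all genes tested, calls of any size narrowed in 7.93%, closed in 10.4%, crossed in 8.96%, opened in 10.2% and widened in 7.91%.

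Fgf5, a secreted FGF and the usual marker of the formative epiblast (chr5:98254184-98277030 in GRCm38, plus strand), stood at 1059, 1043 and 1047 normalized counts in WT at T24 and at 132, 110.2 and 123 in iEZR_CA at T24. At T48 it stood at 1364, 1197 and 1114 in WT and at 1352, 1296 and 1359 in iEZR_CA. The lines were far apart at T24 and overlapped at T48. The log2 difference went from -3.13 (SE 0.09) to 0.12 (SE 0.06, adjusted p = 0.0602), an interaction of 3.25 (SE 0.11, adjusted p = 4.71e-26). Pou3f1, a POU factor of the formative epiblast, stood at 5877, 5286 and 4838 in WT and 790.5, 550.0 and 723 in iEZR_CA at T24, and at 12884, 11518 and 12661 and 6343, 5723 and 6096 at T48. It rose in both lines and more in iEZR_CA, and still lay below WT at T48 in every library, with an interaction of 1.97 (SE 0.15, adjusted p = 8.25e-08). Lef1, a nuclear partner of beta-catenin, stood at 1940.5, 1945 and 1898 in WT and 202, 168 and 193 in iEZR_CA at T24, and at 2303, 2308 and 2324 and 1545, 1433 and 1430.5 at T48. It narrowed from a log2 difference of -3.38 to one of -0.65, with an interaction of 2.73 (SE 0.07, adjusted p = 3.85e-42).

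Otx2 and Dnmt3l crossed as they fell in WT and rose in iEZR_CA. Otx2, a homeobox factor that redirects enhancers during the exit (chr14:48657677-48673819, minus strand), stood at 4822, 4712 and 4644 in WT at T24 and 2226, 2023 and 2001 at T48. In iEZR_CA it stood at 2292, 1997 and 2153 at T24 and 3434, 3513 and 3530.1 at T48. It fell in WT by 1.18 and rose in iEZR_CA by 0.71 on the log2 scale, so that iEZR_CA libraries were all below WT at T24 and all above it at T48 (interaction 1.89, SE 0.06, adjusted p = 2.73e-28). Dnmt3l, the catalytically inactive cofactor of the de novo methyltransferases (chr10:78041947-78063622, plus strand), stood at 21189, 21282 and 21805 in WT at T24 and 5696, 6166 and 6290.2 at T48, against 15116, 14803 and 15278 and then 16710.0, 17085 and 17202 in iEZR_CA. It fell by 1.83 in WT and rose by 0.18 in iEZR_CA on the log2 scale (interaction 2.00, SE 0.06, adjusted p = 2.74e-18). Tcf15, a helix-loop-helix factor of primed cells, crossed in the same way with an interaction of 2.37 (SE 0.24).

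Some formative genes stayed behind. Dnmt3b, a de novo methyltransferase, kept a log2 difference of -1.15 at T48 after -1.32 at T24, Sall2, a zinc finger factor, kept -1.96 after -3.48, and Tead2, a YAP partner, had the same difference of -1.12 at both times (interaction 0.00, SE 0.05, adjusted p = 0.999). Sox3, a SOX factor of the epiblast and early neural plate, widened from -0.85 to -1.08. With scaling to the spike-in sequences the interactions of Dnmt3b, Sox3 and Sox4 no longer passed the test, and 14 of the list were still higher.

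The naive network did the reverse. Of its 15 genes, 10 had a higher interaction, 1 (Nanog) a lower one and 4 (Klf2, Tbx3, Prdm14, Nr5a2) no call, with a median of 0.76. All 15 fell from T24 to T48 in WT (32.9% of all genes fell) and 14 in iEZR_CA (30%), so that what differed was the depth of the fall: the median change was -3.16 in WT and -2.34 in iEZR_CA. iEZR_CA was higher in 12 of the 15 at T24 (30.8%) and in all 15 at T48 (31%), and the median line difference went from 0.75 to 2.24. Of those with a call, 8 widened (7.91% of all genes), 2 crossed (8.96%) and 1 narrowed (7.93%). Formative genes and naive genes thus moved in the same direction in the interaction, but for the first this was catch-up and for the second divergence.

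Esrrb, an orphan nuclear receptor of the naive network (chr12:86361117-86521628, plus strand), stood at 5937, 5914 and 5908 in WT at T24 and 355, 369 and 413 at T48. In iEZR_CA it stood at 12034, 12316 and 11656 at T24 and 2511, 2584 and 2693 at T48. It fell in both lines, and the log2 gap grew from 1.02 to 2.77 (interaction 1.75, SE 0.05, adjusted p = 7.75e-41). Zfp42 (Rex1), a zinc finger protein whose loss marks the exit (chr8:43295063-43306980, minus strand), stood at 12772, 12516 and 11985 in WT and 17924, 17301 and 17888 in iEZR_CA at T24, then at 815, 836 and 810.2 and at 4715, 5040.3 and 5383 at T48. Its gap grew from 0.51 to 2.63 (interaction 2.12, SE 0.05, adjusted p = 8.6e-32). Nr0b1 (Dax1), a corepressor, started slightly lower in iEZR_CA, at 6319.6, 6359 and 6487 against 7642, 7872 and 7782, and ended higher, at 980.3, 1036 and 1076 against 190.1, 201 and 206 (interaction 2.66, SE 0.07, adjusted p = 1.42e-29). Tcl1, a coactivator of AKT, and Klf4, a zinc finger factor, widened by 2.04 (SE 0.18) and 0.88 (SE 0.12).

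Nanog, the homeobox factor of the network, went the other way. It stood at 2393, 2392 and 2393 in WT at T24 and 441, 423 and 369.9 at T48, and in iEZR_CA at 8095, 8345 and 8323 and then at 1069, 1119 and 1131. It fell more in iEZR_CA, and the log2 gap narrowed from 1.79 to 1.44 (interaction -0.35, SE 0.05, adjusted p = 6.3e-08), a call that was lost with spike-in scaling. Tbx3, a T-box factor that showed the largest gap of the list at T24 (2.64), had an interaction of -0.32 that did not pass the test (adjusted p = 0.0959). Without WT T48 replicate 1 it was -0.64 and passed it.

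**Figure D3:**
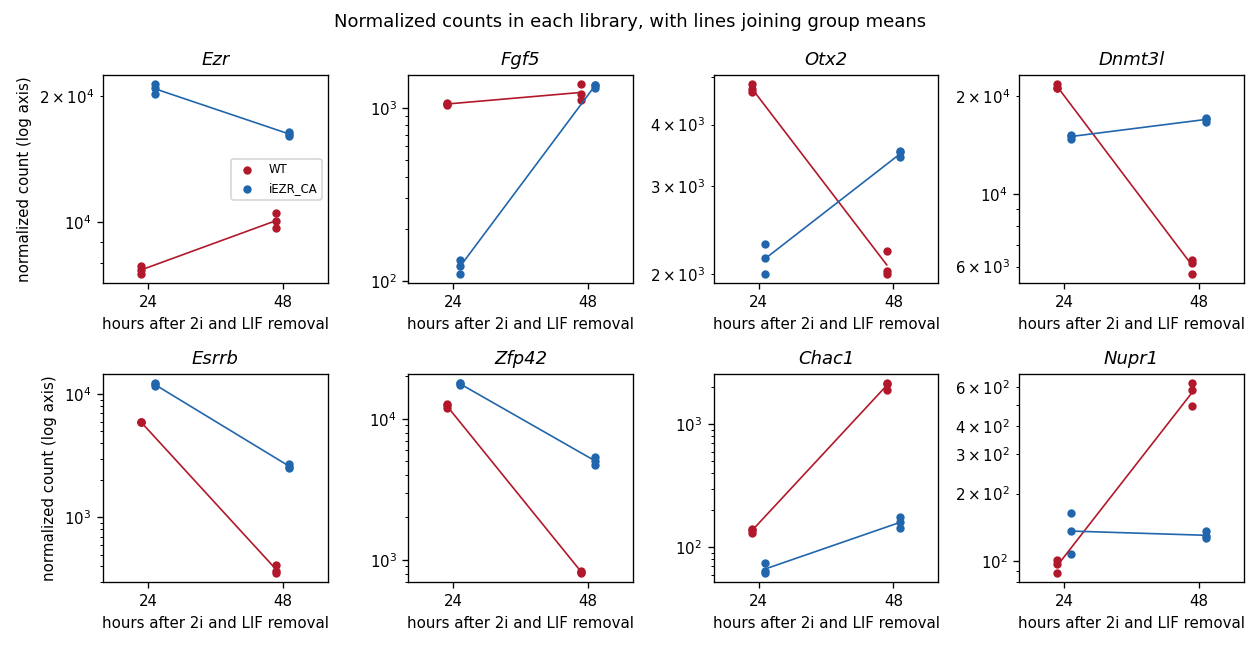
Each panel shows the normalized counts (log axis) of 1 gene in the 3 libraries of each line at 24 h and 48 h (points), with lines joining the group means. Fgf5 in iEZR_CA reaches the WT level at 48 h, Otx2 and Dnmt3l cross, Esrrb and Zfp42 fall less in iEZR_CA than in WT, Chac1 rises more in WT, Nupr1 rises in WT only, and Ezr narrows.

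Targets of ATF4 diverged. ATF4 is the transcription factor of the integrated stress response and of amino acid shortage, and its targets include genes of serine synthesis, amino acid transport and feedback control. Of the 18 genes of the list, 17 had a lower interaction and 1 (Slc7a3) a higher one, with a median of -1.31 against 0.01 over all genes. In WT 17 of 18 rose from T24 to T48 (32.8% of all genes), with a median change of 1.45. In iEZR_CA 6 rose (29.6%), 6 fell (30%) and 6 did not pass the test, with a median of 0.06. iEZR_CA was lower than WT in 7 of the 18 at T24 (30.1%) and in 17 at T48 (30.1%), and the median line difference went from -0.19 to -1.41. With calls of any size, 8 opened (10.2% of all genes), 6 widened (7.91%) and 4 crossed (8.96%). With spike-in scaling 15 were lower, as Atf4 itself and Sesn2, an inhibitor of mTORC1, lost their calls. The call of Cebpb, a bZIP factor, at an adjusted p of 0.0436, was lost in most fits that left out 1 library, with an interaction of -1.48 without WT T24 replicate 3 and of -1.91 without iEZR_CA T24 replicate 2.

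The promoters of 16 of these 18 genes were matched in the RefSeq table (GRCm38.p6, 250 bases before to 50 after the start), and 4 held the 7 letters TGATGCA or their reverse complement, the start of the composite element that ATF4 and C/EBP proteins bind. Over the 11945 tested genes with a promoter in the table, 2.34% held it, against 25% of the 16. The 4 sequences are shown 5′ to 3′ on the strand of the gene because their genes are among those with a lower interaction, with the match in capitals. They are Atf3 (chr1:191183284-191183583, minus strand), Nupr1 (chr7:126625421-126625720, minus strand), Chac1 (chr2:119350992-119351291, plus strand) and Slc7a11 (chr3:50443564-50443863, minus strand), of which Slc7a11 holds the letters 2 times.
Atf3: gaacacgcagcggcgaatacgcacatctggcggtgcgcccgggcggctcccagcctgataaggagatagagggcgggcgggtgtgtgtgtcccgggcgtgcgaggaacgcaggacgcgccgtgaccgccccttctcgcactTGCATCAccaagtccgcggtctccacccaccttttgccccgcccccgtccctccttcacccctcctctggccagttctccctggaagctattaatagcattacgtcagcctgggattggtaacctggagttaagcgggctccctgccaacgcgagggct
Nupr1: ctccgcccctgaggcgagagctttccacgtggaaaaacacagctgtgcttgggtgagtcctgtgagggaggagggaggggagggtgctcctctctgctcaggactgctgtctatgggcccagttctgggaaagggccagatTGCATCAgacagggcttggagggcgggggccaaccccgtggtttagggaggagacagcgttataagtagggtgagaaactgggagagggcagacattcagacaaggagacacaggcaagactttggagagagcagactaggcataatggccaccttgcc
Chac1: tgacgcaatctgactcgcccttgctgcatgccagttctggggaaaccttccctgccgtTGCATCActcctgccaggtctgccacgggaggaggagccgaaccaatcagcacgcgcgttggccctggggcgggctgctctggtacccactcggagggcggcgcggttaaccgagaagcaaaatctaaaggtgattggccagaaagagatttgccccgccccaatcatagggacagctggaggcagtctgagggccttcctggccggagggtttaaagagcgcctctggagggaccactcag
Slc7a11: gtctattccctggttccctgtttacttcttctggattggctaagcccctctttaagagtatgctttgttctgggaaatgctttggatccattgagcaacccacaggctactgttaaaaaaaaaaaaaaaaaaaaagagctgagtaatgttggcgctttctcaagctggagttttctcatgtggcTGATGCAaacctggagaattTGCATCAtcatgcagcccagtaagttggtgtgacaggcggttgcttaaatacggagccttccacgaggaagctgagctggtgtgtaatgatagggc
A match of letters is a description of the sequence and does not show that ATF4 binds there in these cells.

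Chac1, which breaks down glutathione, stood at 139, 140.3 and 131 in WT and 62, 74.5 and 63.8 in iEZR_CA at T24, and at 2162, 2141 and 1908 and 175, 162 and 143 at T48. It rose in both lines, by 3.90 in WT and by 1.25 in iEZR_CA on the log2 scale (interaction -2.65, SE 0.16, adjusted p = 1.23e-23). Nupr1, a small stress-induced chromatin protein, stood at 88.2, 101 and 96.2 in WT at T24 and 626, 585 and 493 at T48, but at 136, 164 and 107 and then 136, 128 and 126 in iEZR_CA. It rose in WT, while its change in iEZR_CA was -0.08 (SE 0.12, adjusted p = 0.62), and the interaction was -2.66 (SE 0.17, adjusted p = 2.35e-17). Slc7a11, the cystine transporter, stood at 29, 25.2 and 28.4 in WT and 20.2, 24.3 and 14.1 in iEZR_CA at T24, and at 296, 309.7 and 311 and 44.3, 42.3 and 44.4 at T48. Its interaction was -2.32 (SE 0.29, adjusted p = 4.34e-10). Atf3, a bZIP factor induced by stress, rose in WT from 9.46 to 15.1 at T24 to 174 to 199 at T48, while iEZR_CA stayed between 5.4 and 15.1 at both times (interaction -3.26, SE 0.46, adjusted p = 9.85e-09).

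Trib3, a pseudokinase that feeds back on ATF4, stood at 506, 488 and 454 in WT and 426, 475 and 453 in iEZR_CA at T24, where the lines overlapped. At T48 it stood at 1814, 1772 and 1580.3 in WT and 343, 362 and 325 in iEZR_CA. It rose in WT and fell in iEZR_CA (interaction -2.21, SE 0.09, adjusted p = 2.76e-30). Serine and proline synthesis moved likewise, with interactions of -1.52 (SE 0.07) for Phgdh and -1.24 (SE 0.04) for Psat1, both of serine synthesis, and -1.46 (SE 0.06) for Aldh18a1, the first enzyme of proline synthesis. The exception, Slc7a3, an arginine and lysine transporter, fell from 11145, 11714 and 11945 to 5075, 4788 and 4887 in WT and from 8100.2, 8038 and 8126 to 6158, 6461 and 6401 in iEZR_CA, an interaction of 0.89 (SE 0.04, adjusted p = 1.37e-27).

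**Figure D4:**
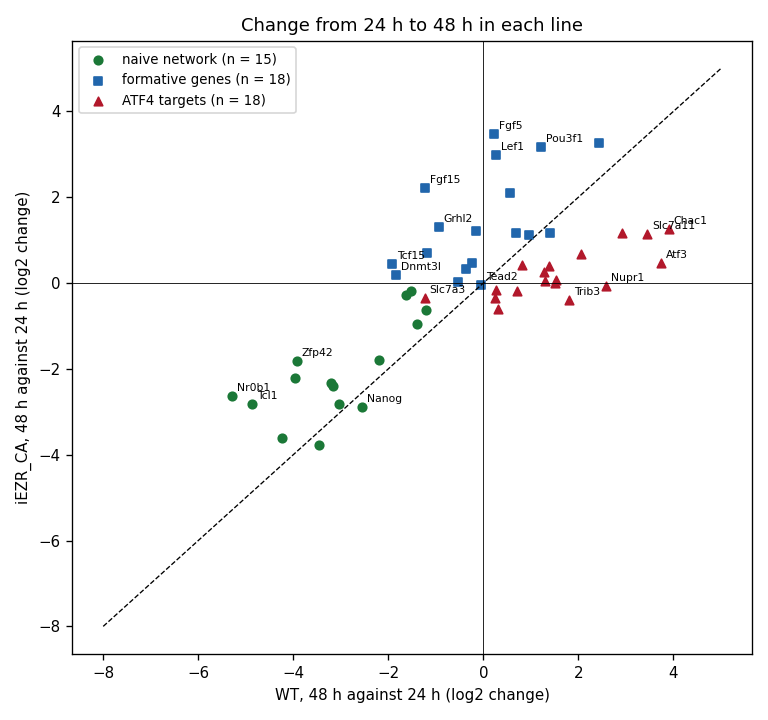
Each point is 1 gene of 3 lists, placed by its log2 change from 24 h to 48 h in WT (x axis) and in iEZR_CA (y axis). The dashed line marks equal change. The 18 formative genes lie on or above it apart from Sox3, the naive genes lie at the lower left and mostly above it, with a median change of -3.16 in WT and -2.34 in iEZR_CA, and 17 of the 18 ATF4 targets lie below it.

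Genes of NODAL signalling, which supports pluripotency beyond the naive state, mostly had a higher interaction. Of 14 tested of 15 listed, 11 had a higher interaction (25.3% of all genes), 2 a lower one (20.9%) and 1 no call, with a median of 0.74. The median line difference went from -0.15 to 0.31. From T24 to T48, 2 rose in WT (32.8% of all genes) and 9 fell (32.9%). In iEZR_CA 6 rose (29.6%) and 6 fell (30%). The median change was -0.56 in WT and 0.01 in iEZR_CA. The ligand Nodal stood at 1367, 1426 and 1431 in WT and 1464, 1484 and 1522 in iEZR_CA at T24, and at 456, 463 and 446 and 1040.5, 1096 and 1122 at T48. It fell in both lines and more in WT (interaction 1.17, SE 0.06, adjusted p = 2.96e-25). Its feedback inhibitor Lefty1 fell in WT from 703, 746 and 705 to 355, 356 and 327, and rose in iEZR_CA from 719, 477 and 608 to 1104, 1087 and 1080.4 (interaction 1.96, SE 0.13, adjusted p = 3.93e-10). Lefty2, the second inhibitor, had 1.70 (SE 0.21). The 2 lower ones were the signal transducer Smad3 (-1.12, SE 0.07) and the receptor Acvr1b (-0.60, SE 0.07). With spike-in scaling 8 were higher.

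The DNA methylation machinery sets and removes methyl marks as the epiblast matures. Of its 14 genes, 13 had a higher interaction (25.3% of all genes) and 1 a lower one (20.9%), with a median of 0.59. Its median line difference went from -0.29 to 0.11. It shares 3 genes with the formative list. Dnmt3a, a de novo methyltransferase, stood at 21226, 21062 and 21655 in WT and 5843, 5847 and 5523 in iEZR_CA at T24, and at 19723, 19806 and 18274 and 13384, 13323 and 13101 at T48. It rose by 1.21 on the log2 scale in iEZR_CA and still lay below WT (interaction 1.36, SE 0.04, adjusted p = 1.51e-34). Tet2, a demethylating dioxygenase of naive cells, fell in WT from 2710.1, 2646 and 2811 to 505, 532 and 625 and in iEZR_CA from 2266, 2432 and 2235 to 1413, 1419 and 1405 (interaction 1.58, SE 0.10, adjusted p = 4.84e-10). Its relative Tet3 was the single lower gene, rising from 541 to 1327 in WT and from 525 to 699.7 in iEZR_CA as group means (-0.88, SE 0.09). Zfp57 and Trim28, which guard imprints, had 1.05 (SE 0.05) and 0.59 (SE 0.03). With spike-in scaling 8 were higher.

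Targets and feedback genes of ERK had calls in both directions. Of 20, 10 were higher (25.3% of all genes), 4 lower (20.9%) and 6 had no call, with a median of 0.19. The share called lower was thus close to that over all genes. The median line difference stayed near the same level, at -0.39 and then -0.35. iEZR_CA was lower in 12 at T24 (30.1%) and in 10 at T48 (30.1%). Egr1, an immediate early factor, stood at 274, 297 and 232 in WT and 17.5, 32.7 and 22.5 in iEZR_CA at T24, and at 417, 461 and 517 and 205, 184 and 161 at T48, so that the log2 gap narrowed from -3.40 to -1.32 (interaction 2.08, SE 0.19, adjusted p = 4.16e-14). Not all higher genes narrowed: Epha2 crossed from -0.64 to 1.57 (interaction 2.21, SE 0.05), and Phlda1 opened to 1.37 (1.29, SE 0.25). Dusp4, a nuclear ERK phosphatase, and Myc narrowed by 1.13 (SE 0.05) and 0.98 (SE 0.08). Dusp6, the cytoplasmic ERK phosphatase, widened instead. It rose in WT from 2591, 2581 and 2546 to 3786, 3746 and 3663, and stood at 1576, 1557 and 1631 and then 1497, 1627 and 1585 in iEZR_CA (interaction -0.55, SE 0.06, adjusted p = 1.45e-09). Spred1, an inhibitor of RAS signalling, also widened (-0.60, SE 0.05).

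On the FGF list of 15 genes, 6 were higher (25.3% of all genes), 3 lower (20.9%) and 6 had no call, with a median of 0.38. The share called lower was close to that over all genes. With spike-in scaling 4 were higher and none lower. The list holds members of the FGF family, not all of which need act as ligands, with receptors, the adaptor Frs2 and the coreceptor Sdc4. Of its 9 family members, Fgf15 (3.43), Fgf5 (3.25), Fgf1 (2.57, SE 0.34) and Fgf4, which ESCs make themselves (1.35, SE 0.07), were higher. Fgf13 was lower (-0.65, SE 0.19), while Fgf3, Fgf8, Fgf10 and Fgf17 had no call. Of its 4 receptors, Fgfr4 was higher (0.81, SE 0.26), Fgfr1 lower (-0.17, SE 0.04), and Fgfr2 and Fgfr3 had no call. Of 13 LIF and STAT3 genes tested, 8 were higher (25.3% of all genes), 1 lower (20.9%) and 4 had no call, with a median of 0.57. Lifr, the receptor of LIF, overlapped between the lines at T24 (2229 to 2503 in WT, 2274 to 2578 in iEZR_CA) and stood at 338, 349.9 and 361 against 1285, 1270.3 and 1320.2 at T48 (interaction 1.79, SE 0.07, adjusted p = 6.93e-30), and Stat3 had 0.84 (SE 0.07). Of 14 WNT targets tested, 2 were higher, 3 lower and 9 had no call, shares no larger than those over all genes (25.3% higher) or close to them (20.9% lower). One of the 2 was Lef1. The other was Notum, a secreted inhibitor of WNT, which fell from 855, 899 and 876 to 10, 5.74 and 14.7 in WT and from 796, 731 and 837 to 149.7, 132 and 171 in iEZR_CA (interaction 3.88, SE 0.20, adjusted p = 6.45e-27). Axin2, the usual readout of WNT activity, had 0.31 (SE 0.19, adjusted p = 0.216).

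BMP and ID genes lost ground in iEZR_CA. Of 17, 9 were lower (20.9% of all genes), 2 higher (25.3%) and 6 had no call, with a median of -0.52. Id2, an inhibitor of helix-loop-helix factors, stood at 101, 108 and 110.3 in WT and 473, 488 and 489 in iEZR_CA at T24, and at 302, 308 and 360.1 and 144, 145 and 164 at T48. It rose in WT and fell in iEZR_CA, and the order of the lines turned over in all libraries (interaction -3.32, SE 0.13, adjusted p = 4.91e-33). The ligand Bmp4 stood at 74.7, 81.8 and 85.1 and 614, 659 and 695 at T24, and at 56.4, 42.1 and 32.7 and 107, 113 and 102 at T48, in WT and iEZR_CA in turn. Its gap narrowed from 3.06 to 1.29 (interaction -1.77, SE 0.20, adjusted p = 9.63e-12). Id1 and Id3 parted, at -1.90 (SE 0.27) and 0.75 (SE 0.14).

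Markers of primitive endoderm, a lineage that naive cultures can form, moved likewise. Of 14, 9 were lower (20.9% of all genes), 1 (Hnf4a) higher (25.3%) and 4 had no call, with a median of -1.04. The 4 without a call were Gata6, Gata4, Sox17 and Pdgfra, 3 of them the defining transcription factors, at mean normalized counts of 35.4, 17.6 and 13.8 for Gata6, Gata4 and Sox17 over the 12 libraries. The lower ones included Dab2, an endocytic adaptor, at -3.54 (SE 0.18), and the laminin and collagen genes Lama1 at -2.76 (SE 0.11) and Col4a1 at -1.24 (SE 0.08). Summed over the list, normalized counts were 4973 to 5111 in WT at T24 and 8259 to 8813 at T48, and 8717 to 8911 and then 5233 to 5409.6 in iEZR_CA. These sums rest mostly on the matrix genes Sparc and Lamb1, at means of 3481 and 2061, and do not measure a number of endoderm cells. On the log2 scale Sparc fell by 0.56 in WT and 1.43 in iEZR_CA, and Lamb1 rose by 2.03 and 1.40. The part of primitive endoderm cells in other results was not tested.

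Lists of adhesion, matrix and cytoskeletal genes also had more lower than higher calls. The matrix list holds Lama1, Lamb1 and Col4a1, lower genes that are also on the primitive endoderm list. Of 18 adhesion and EMT genes, 9 were lower and 5 higher (median -0.16), and of 20 matrix and integrin genes 10 were lower and 6 higher (median -0.21), against 20.9% lower and 25.3% higher over all genes. With spike-in scaling 5 adhesion and EMT genes were lower and 4 higher. Krt8, an epithelial keratin, stood at 31.6, 39.4 and 37.8 in WT and 243, 227 and 240.1 in iEZR_CA at T24, and at 159, 130.0 and 137 and 89.5, 95.4 and 75.5 at T48 (interaction -3.45, SE 0.19, adjusted p = 1.78e-24). Its partner Krt18 had -1.87 (SE 0.15) and the fibrillar collagen gene Col1a1 -2.53 (SE 0.43). In contrast Zeb1, a repressor of epithelial genes, had 1.78 (SE 0.10), and Fn1, fibronectin, 0.80 (SE 0.08). Of 17 SRF and YAP targets tested, 9 were lower and 6 higher (median -0.43), with Ccn1 and Ccn2, matricellular YAP targets, at -0.94 (SE 0.10) and -0.90 (SE 0.09). With spike-in scaling 7 were lower and 2 higher.

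Linkers of membrane and cortex showed no common direction, with 7 higher, 4 lower and 8 without a call among 19 and a median of 0.06. Ezr rose by 0.38 in WT and fell by 0.36 in iEZR_CA on the log2 scale, and the gap between the lines narrowed from 1.43 to 0.69 (interaction -0.74, SE 0.04, adjusted p = 1.19e-27). The counts do not separate the transgene from the endogenous gene. Msn, its paralog moesin, had 0.06 (SE 0.05, adjusted p = 0.344). Cd44, a hyaluronan receptor that binds ERM proteins, rose in WT from 3.22, 3.03 and 3.15 to 92, 101 and 113 and stood at 8.09, 7.6 and 8.44 and then 11.7, 8.46 and 8.39 in iEZR_CA (interaction -4.70, SE 0.56, adjusted p = 8.93e-11). Myo1f, a class I myosin, crossed with 2.60 (SE 0.13). With spike-in scaling 3 were higher and 4 lower.

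Metabolic and cell cycle lists had medians between -0.11 and 0.26, with calls to be read against 25.3% higher and 20.9% lower over all genes. Of 20 glycolysis and hypoxia genes, 6 were higher and 8 lower (median -0.11). Slc2a1, the main glucose transporter, rose from 5608, 5305 and 5266 to 28164, 27649 and 26683 in WT and from 4783, 4682 and 4768 to 10106, 9994 and 9636 in iEZR_CA (interaction -1.28, SE 0.04, adjusted p = 1.9e-39). Vegfa, the angiogenic ligand, rose in WT from 259, 242 and 255 to 1023, 1031 and 907 and fell in iEZR_CA from 197, 229 and 227 to 125, 135 and 116 (-2.75, SE 0.11, adjusted p = 5e-32). Glycolytic enzymes had far smaller values, such as Hk2 at -0.03 (SE 0.04) and Eno1 at -0.26 (SE 0.04). Of 20 genes of cholesterol synthesis and uptake, 13 were higher and 3 lower (median 0.25), of 15 G1 cyclins and CDK inhibitors 10 were higher and 1 lower (median 0.26), and of 15 p53 targets 8 were higher and 3 lower (median 0.20). With spike-in scaling 3, 4 and 2 of these were higher, and 5 glycolysis and hypoxia genes were higher and 3 lower. Of 13 mitochondrial mRNAs, 1 was higher and 12 had no call (median 0.01).

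Lists of lineage and germline genes differed in level and in calls, which are to be read against 25.3% higher and 20.9% lower over all genes. Of 12 primitive streak genes tested, Eomes was higher (1.09, SE 0.15), Mixl1 lower (-2.30, SE 0.51) and 10 had no call. The brachyury gene T was at a mean of 4.52 normalized counts, but Wnt8a was at 337. Wnt8a rose by 4.42 in WT and 4.50 in iEZR_CA on the log2 scale. Its line difference was -1.57 at T24 and -1.49 at T48 (interaction 0.08, SE 0.30, adjusted p = 0.85). Of 11 early neural genes tested, 2 were higher (25.3% of all genes), 3 lower (20.9%) and 6 had no call. Neither share was far from that over all genes. The lower ones included Nes, a neural intermediate filament, at -2.21 (SE 0.11) and the adhesion molecule Ncam1 at -2.54 (SE 0.13). Summed normalized counts of the neural list were 1825 to 1899 and then 2403 to 2556 in WT, and 2509 to 2678 and then 1278 to 1333 in iEZR_CA. These sums follow the abundant members and not the list as a whole. Sox21, with the largest mean of the list (644), fell by 3.92 in WT and by 3.02 in iEZR_CA on the log2 scale. It was 1 of the 2 higher genes (0.90, SE 0.13). The median change over the list in iEZR_CA was 0.23. Of 9 trophoblast markers tested, 4 were higher and 2 lower, with sums of 819.8 to 869 and 449 to 469.8 in WT and of 2255 to 2344 and 1395 to 1494 in iEZR_CA. Of 7 genes of the 2-cell-like state tested, 1 was higher and 6 had no call, and several of these have near-identical copies that the counting can split. Of 17 germline genes, 10 were lower and 6 higher (median -0.60), the meiotic genes Sycp1, Sycp2 and Sycp3 being lower (-1.01, -1.90 and -0.85) and the RNA-binding gene Dazl higher (1.06, SE 0.06). Tuba3a and Tuba3b among them are near-identical copies.

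**Figure D5:**
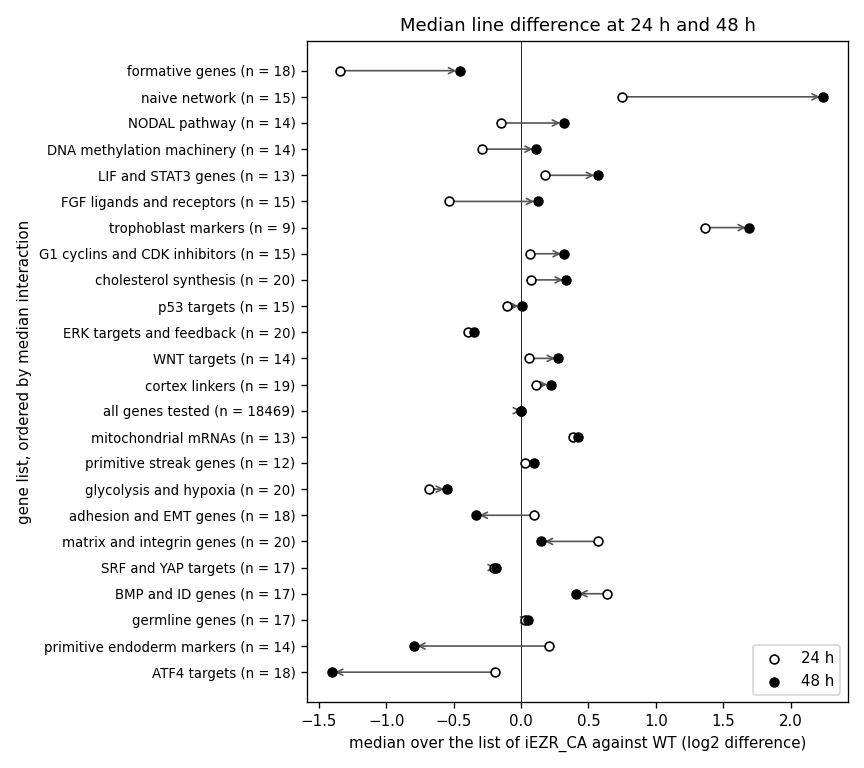
For each list, the open circle gives the median log2 difference of iEZR_CA against WT at 24 h and the filled circle that at 48 h, with an arrow from the first to the second. Lists are ordered by median interaction. The early neural and 2-cell-like lists, which have some members near 0 counts, are not drawn. The primitive streak list is drawn, although it also has members with few counts. Formative genes move from -1.35 towards 0, the naive network moves away from 0 to 2.24, and ATF4 targets move from -0.19 to -1.41.

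Beyond the lists, the 4 genes with the largest interaction in each direction were taken from catch-up, crossing and divergence, and those reported here are described by class. Among genes that caught up upwards, Vrtn, a vertebral number gene, stood at 813, 807 and 824 in WT and 35.1, 25.1 and 36.6 in iEZR_CA at T24, and at 2069.6, 1895 and 1793 and 1731, 1646 and 1468 at T48 (interaction 4.45, SE 0.12, adjusted p = 1.24e-35). Car4, a membrane-bound carbonic anhydrase, stood at 192, 216 and 230.1 and 13.5, 12.9 and 14.1 at T24, and at 929, 895 and 914 and 578, 593 and 553 at T48 (3.28, SE 0.18). Both rose in both lines and remained below WT in every iEZR_CA library. Fgf15, an FGF of the embryo, fell in WT from 366, 411 and 386 to 192, 151 and 146 and rose in iEZR_CA from 17.5, 14.4 and 21.6 to 84.5, 80.8 and 80.3 (3.43, SE 0.22). Fgf5 was the fourth.

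Genes that caught up downwards were high in iEZR_CA at T24 and close to WT at T48. Fbln5, an elastic fibre protein, stood at 10.3, 9.08 and 14.2 in WT and 298, 327 and 342 in iEZR_CA at T24, and at 14.7, 15.3 and 13.9 and 10, 16.2 and 21.6 at T48 (interaction -4.82, SE 0.39, adjusted p = 3.46e-17). Duox1, an NADPH oxidase, fell in iEZR_CA from 239, 367 and 241 to 34.3, 21.5 and 38.4, against 11.6, 13.1 and 6.31 and then 44.8, 24.9 and 49.9 in WT (-5.21, SE 0.56). Trpa1, an irritant-gated ion channel, fell from 249.5, 259 and 278 to 51.9, 46.2 and 68.3, against 12.2, 28.3 and 14.2 and then 56.4, 45.9 and 47.5 (-3.80, SE 0.26). Msc, a helix-loop-helix repressor, fell from 219, 220.3 and 249 to 3.35, 5.39 and 4.8 in iEZR_CA, and WT held 2 to 5 raw counts at T48 (-3.96, SE 0.73). In all 4 the lines overlapped at T48.

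Crossing genes included Capn3, a calcium-dependent protease, which fell in WT from 2469.8, 2279 and 2423 to 439, 447 and 429 and rose in iEZR_CA from 459, 444 and 495 to 1248, 1249 and 1366 (interaction 3.92, SE 0.07). Tal2, a helix-loop-helix factor, rose in iEZR_CA from 4.05, 8.36 and 10.3 to 250.1, 266 and 281, against 119, 95.9 and 153 and then 92, 76.5 and 90.8 in WT (5.46, SE 0.26). Dcn, decorin, rose in both lines, from 0, 3.04 and 0 to 328, 363 and 303 in iEZR_CA and from 19.3, 16.2 and 11 to 222, 243 and 215 in WT. Its interaction of 4.16 rests on 0 to 4 raw counts in iEZR_CA at T24.

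In the other direction, Hhip, which binds hedgehog ligands, rose in WT from 39.3, 37.3 and 48.9 to 98.9, 120.5 and 131 and fell in iEZR_CA from 171, 164 and 176 to 22.6, 18.5 and 15.6 (interaction -4.64, SE 0.23, adjusted p = 3.9e-27). Srrm4, a splicing factor of neural microexons, rose in WT from 10.9, 15.1 and 7.88 to 289.8, 315 and 334 and stood at 48.6, 53.2 and 32.8 and then 55.2, 46.2 and 83.9 in iEZR_CA (-4.33, SE 0.29). Vldlr, a lipoprotein and reelin receptor, rose in WT from 26.4, 39.4 and 31.5 to 889, 878 and 796 and in iEZR_CA from 44.5, 53.9 and 32.8 to 61.1, 89.2 and 69.5 (-4.01, SE 0.24). Its libraries overlapped between the lines at T24, where the difference was small (0.49, SE 0.21, adjusted p = 0.0358), so its crossing rests on a weak call. Abcc8, the sulfonylurea receptor, rose in WT from 1.93, 5.05 and 6.31 to 76.5, 68.8 and 67.1 and fell from 82.3, 83.6 and 89.1 to 55.2, 49.2 and 61.2 in iEZR_CA (-4.83, SE 0.34). WT changed more than iEZR_CA in the last 3.

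Among genes that diverged upwards, Smyd1, a muscle histone methyltransferase, stood at 1150.2, 1109 and 1127 in WT and 2440.2, 2450.0 and 2381 in iEZR_CA at T24, and at 47.9, 88 and 60.6 and 1226, 1308 and 1336 at T48 (interaction 3.32, SE 0.10, adjusted p = 1.15e-38). Aox3, an aldehyde oxidase, fell in WT from 58.6, 58.5 and 52 to 1 to 3 raw counts, and from 268, 259 and 240.1 to 56.9, 50.8 and 81.5 in iEZR_CA (2.96, SE 0.48). Pramef17, of a large family of similar genes that makes its counts uncertain, had no count in any WT library at T48 and 21.7, 30.8 and 16.8 normalized counts in iEZR_CA. Its fitted interaction of 5.18 depends on the prior count: with that WT group set to 3 counts in each library, Pramef17 was at least 6.59-fold higher in iEZR_CA at T48, and its interaction came to 0.21.

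Among genes that diverged downwards, Kif1a, a kinesin of synaptic transport, stood at 23.8, 16.2 and 33.1 in WT and 36.4, 25.8 and 15 in iEZR_CA at T24, and at 663, 625 and 611 and 63.6, 76.2 and 57.6 at T48 (interaction -3.32, SE 0.31, adjusted p = 2.91e-14). Aldh1l2, a mitochondrial enzyme of folate metabolism, rose in WT from 30.9, 28.3 and 34.7 to 211, 201 and 199.7 and fell in iEZR_CA from 40.5, 45.6 and 29.1 to 22.6, 18.5 and 28.8 (-3.49, SE 0.27). Col1a2, a fibrillar collagen gene, rose in WT to 170.0, 219.9 and 211 and stood at 10.9, 10 and 10.8 in iEZR_CA at T48, after 1 to 5 raw counts in WT at T24 (-4.74, SE 0.86). Fut1, a fucosyltransferase, stood at 259, 258 and 233 in WT and 9.2, 4.62 and 6 in iEZR_CA at T48, with 0 to 3 raw counts in both lines at T24. Its interaction of -4.56 (SE 1.42) was -1.41 and no longer passed the test without iEZR_CA T24 replicate 2, so only its difference at T48 (-5.21, SE 0.21) was well measured.

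The classes were also described by position and by promoter letters. At T24 genes of chromosome 8 had a median line difference of 0.23 and those of chromosome 14 of -0.36. At T48 these medians were 0.19 and -0.25. Only the 12749 genes whose normalized counts averaged 50 or more were used here. The median interaction was 0.01 on chromosome 8 and 0.06 on chromosome 14, the highest of any chromosome, against 0.03 over all of these genes. Promoters were searched on both strands for AAGGTCA, the half-site that ESRRB binds. It was in 4.03% of all tested genes with a promoter in the table, and in 7.34% of closed, 4.79% of narrowed, 5.84% of crossed, 5.61% of opened and 5.42% of widened genes. CTTTGAT (TCF/LEF) was in 3.14% of all and in 2.96% to 4.39% of the classes, ATGCAAA (octamer core, which can overlap TGATGCA) in 4.25% and 3.94% to 7.19%, CACGTG (E-box) in 11.4% and 7.34% to 10.8%, and TGATGCA in 2.34% and 1.53% to 4.79%, the highest share being that of narrowed genes. None of the 10 naive and 12 formative genes with a promoter in the table held AAGGTCA in this window.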

How the data were processed

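RNA-seq of 18 libraries was used, 12 of them in the contrast. The authors trimmed reads with Trim Galore 0.6.5, aligned them to GRCm38 with GSNAP, counted them with HTSeq on Ensembl release 81, and deposited raw counts per gene, not normalized. Use of strand was not given in the sources used here. Reads aligning to several places are not counted, so genes with near-identical copies are uncertain, and the 5 entries for reads outside genes (4.63% to 4.76% ambiguous, 3.71% to 4.62% without a feature, 13.2% to 14.1% not aligned) and 92 spike-ins were left out of totals and tests. Of 53801 gene identifiers, 53706 were named from GENCODE.

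Genes passing filterByExpr (18469) were tested in edgeR 4.0.16 (R 4.3.3) with TMM factors of 0.975 to 1.03, 1 term for each of 6 groups (12 residual degrees of freedom), a quasi-likelihood test (robust option) whose p-values were adjusted by Benjamini-Hochberg at 0.05. All adjusted p-values come from this fit. SEs came from the log2 value and the F statistic, normalized counts from DESeq2 1.42.0 size factors. The script recovered known changes in simulated data. Named were Ezr, the members of 25 lists (384 genes), and the 4 largest large interactions in each direction for catch-up, crossing and divergence among protein-coding genes with a mean of at least 50, without Gm and Rik symbols; Pou5f1 and Sox2 were added as a check. Some of these genes are not reported here. Members, lists and motifs were chosen with earlier results of these data known, and TGATGCA was added after the files were seen. Replicate numbers follow accession order and only name libraries. The paper describes the 3 libraries of each condition as independent biological replicates, but labels do not say how cultures were separated. The p-values measure the spread between these libraries, part of which may be technical. Replicate pairs differed by more than sampling noise (chi-square per degree of freedom 1.55 to 3.20 over 12 pairs). Other scalings, filters, tools and left-out libraries are given at the end.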

Additional observations from a re-analysis of the deposited data

Results flagged for a closer look

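The effect of time differed between the 2 lines, by the test of the interaction, in 8526 genes, and in 1361 of these the lines changed by call in opposite directions. The largest interactions by class passed the same test. In catch-up these were Vrtn at 4.45, Fgf15 at 3.43, Car4 at 3.28 and Fgf5 at 3.25, and Duox1 at -5.21, Fbln5 at -4.82, Msc at -3.96 and Trpa1 at -3.80, on the log2 scale. In crossing they were Tal2 at 5.46, Dcn at 4.16 and Capn3 at 3.92, and Abcc8 at -4.83, Hhip at -4.64, Srrm4 at -4.33 and Vldlr at -4.01. In divergence they were Pramef17 at 5.18, Smyd1 at 3.32 and Aox3 at 2.96, and Col1a2 at -4.74, Fut1 at -4.56, Aldh1l2 at -3.49 and Kif1a at -3.32. Among these, Pramef17, Fut1, Dcn, Col1a2, Msc and Aox3 rest on a group with few counts, and the libraries of Vldlr overlapped between the lines at T24.

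Reads outside the gene counts also separated the lines. The lowest share lost to low alignment quality was 0.917% in the iEZR_CA libraries of T24 and T48, against a highest share of 0.612% in the WT libraries of those times. Its part in the results was not tested.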

How the results depend on the processing

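With scaling to the spike-in sequences, 1909 genes had a higher and 1852 a lower interaction, and 83 of 387 named genes lost their call, while 89.2% of the large interactions were kept. The median interaction was then -0.02. Crossed genes went from 708 to 483 with this scaling. The spike-in share varied between replicates, from 0.575% to 0.874% in iEZR_CA at T48 and 0.685% to 0.792% at T24. In WT it ran from 0.683% to 0.746% at T48 and 0.734% to 0.766% at T24. The part of this spread in the lost calls was not tested. With at least 10 counts in every library, 630 large interactions were higher and 612 lower, 195 closed, 137 narrowed, 222 opened and 169 widened. There, 1229 genes were over 2-fold apart at T24 and 1318 at T48, 468 of them at both. Only 13647 genes were tested there. With a mean count above 50, 684 were higher and 539 lower, with 143 closed and 183 opened. Leaving out each library in turn gave 4212 to 4644 higher and 3570 to 3875 lower. Without the replicates of wells G9 and H9, 18 of the 387 named genes lost their call. DESeq2, its size factors, no filter and the 12 libraries alone kept the counts within 1.5 times, and no named interaction that passed the test changed sign in these fits. No paired analysis was possible because the labels give no replicate numbers, and those used here only name libraries. Folds of genes with 0 to 5 counts in a group are limited by counting error.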
